A study of Macaca fascicularis with 20 samples.

Results

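The let-7 family was followed across 7 laser-cut regions of the fetal visual cortex of the crab-eating macaque. Its members were taken by name, as every miRNA listed as let-7 followed by a letter together with miR-98. This gave 9 miRNAs (let-7a, b, c, d, e, f, g, i and miR-98) of the 828 that both usable tables list, or 18 of 1656 arms when the 5p and 3p strands of each precursor are counted separately. All 18 arms passed the filter on low counts, and 17 of them averaged 10 CPM or more. CPM is here the count scaled to the size of its library after TMM, a method that adjusts library sizes to each other.

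let-7 miRNAs are cut from hairpin precursors, and in most of them the strand from the 5p side is the one loaded into the silencing complex. The family shares 1 seed, the stretch that pairs with target mRNAs, and its members differ by only a few bases outside it. In animals the family is known as a brake on the stem cell state: the RNA-binding protein LIN28 blocks maturation of the precursors in progenitors, and mature let-7 silences growth and cell cycle genes such as HMGA2 and the cyclin D genes as cells differentiate. Several let-7 genes sit in clusters with other miRNAs, in humans for example let-7c with miR-99a and miR-125b, and let-7e with miR-99b and miR-125a.

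Small RNA libraries came from the ventricular zone (VZ) of areas 17 and 18, where radial glia divide, from the outer subventricular zone (OSVZ), the basal germinal layer, and from the cortical plate (CP), the layer of newly arrived neurons. The area 17 OSVZ was cut as an inner sublayer (OSVZ_17int) and an outer one (OSVZ_17ext), while that of area 18 was cut whole (OSVZ_18). Each region had 2 libraries, replicate 1 from embryonic day 80 (set 1) and replicate 2 from embryonic day 79 (set 2), so that VZ had 4 libraries, OSVZ 6 and CP 4. No treatment or genotype is given for any of them. The labels do not say whether 1 animal gave all regions of a set, so p-values measure only the spread between these libraries, which may be partly technical.

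Libraries held between 3603478 and 9517217 counts (median 6729539). The zones could be told apart by their markers: both arms of miR-92b, a radial glia miRNA, were higher in VZ and in OSVZ than in CP, and of 9 tested neuronal arms 5 were lower in VZ and 6 lower in OSVZ. The neuronal arms summed to 639 to 1772 CPM in VZ, 541 to 1262 CPM in OSVZ and 4476 to 10209 CPM in CP. Among them miR-124-3p, the best-known neuronal miRNA, was close to 0 in every zone, with a mean of 0.215 CPM in VZ, 0.460 CPM in OSVZ and 1.96 CPM in CP. Whether reads with several matching loci were kept was not stated, so near-identical let-7 members may share or lose reads. The choroid plexus list summed to 209 to 1952 CPM in VZ, 166 to 957 CPM in OSVZ and 4947 to 7253 CPM in CP. miR-204-5p, which carries that sum, was the only arm of the list called, lower in VZ and OSVZ. miR-211-5p was at 62.8 CPM in VZ against 25.1 CPM in CP, and miR-211-3p at 0.681 CPM against 8.08 CPM. The myeloid and lymphoid list summed to 861 to 1059 CPM in VZ, 737 to 1283 CPM in OSVZ and 464 to 525 CPM in CP, where miR-142-3p was at 0. The mural list summed to 923 to 1947 CPM in VZ, 1410 to 4911 CPM in OSVZ and 675 to 1083 CPM in CP, with VZ and CP overlapping. Of its 7 tested arms 1 was higher in VZ, 2 were higher in OSVZ and 0 were lower. Of 2 endothelial arms 0 were called in VZ or in OSVZ against CP. The oligodendrocyte list, both arms of miR-219 and miR-338, summed to 115 to 318 CPM in VZ, 97.5 to 158 CPM in OSVZ and 398 to 766 CPM in CP. Its members differed in direction: both arms of miR-338, which carry that sum, were lower in VZ and OSVZ, whereas miR-219-3p was higher in VZ, at 83.9 CPM against 12.9 CPM in CP (log2 difference 2.80, adjusted p = 0.00953, edgeR). miR-219-5p was not called. Some arms of the lists differed between zones, and the part of the lists in the let-7 results was not tested. In VZ_18 replicate 1 the erythroid list summed to 327 CPM, against 55.9 to 127 CPM in the other VZ libraries.

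Summed over its 5p arms as counted here, the family was more abundant in CP. let-7a-5p, at most 1.29% of that sum in any library, hardly enters it. The 5p arms together held 1.07% to 1.71% of all counts in VZ (n = 4) and 0.706% to 1.59% in OSVZ (n = 6). In CP they held 1.89% to 2.54% (n = 4). On this scale no germinal library reached the lowest CP library. After scaling between libraries by the TMM method VZ libraries summed to 11907 ± 4982 CPM (SD, n = 4), OSVZ libraries to 11591 ± 2751 CPM (n = 6) and CP libraries to 26819 ± 9779 CPM (n = 4). On that scale the highest VZ library, VZ_17 replicate 1 at 18583 CPM, lay above the lowest CP library, CP_17 replicate 2 at 17418 CPM. These are pieces of tissue, in which fewer cells of a type and less RNA per cell cannot be told apart.

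**Figure D1:**
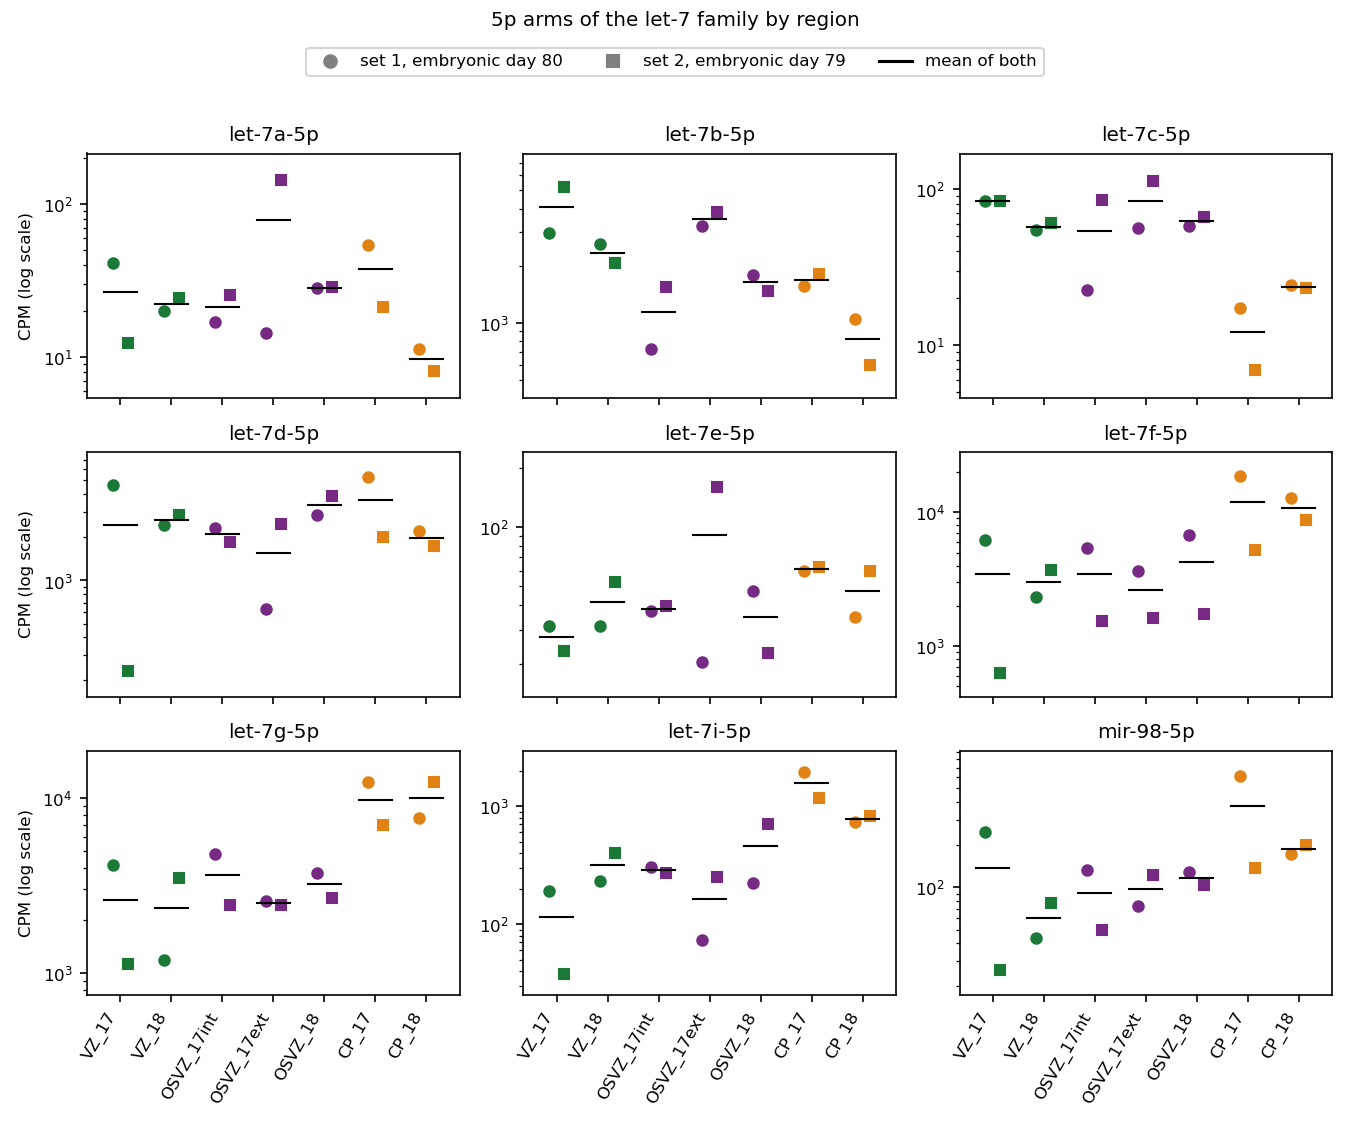
Level of each 5p arm (TMM-scaled CPM, log axis) in the 7 regions, with circles for set 1, squares for set 2 and a line for the mean of both. let-7f, let-7g and let-7i sit highest in the 2 CP regions, and let-7b and let-7c have their highest points in VZ_17 and OSVZ_17ext.

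The comparison of germinal zones with CP asks how the family divides between dividing progenitors and young neurons. By edgeR's quasi-likelihood test, with the set as a block and Benjamini-Hochberg adjustment over 1139 arms, the 5p arms of let-7b and let-7c were higher in VZ and those of let-7f, let-7g and let-7i lower, while the other 13 of the 18 failed to pass. Between OSVZ and CP let-7c-5p was higher, the same 3 arms (f, g and i) were lower, and 14 did not pass. Of all arms tested, 7.37% were called in VZ against CP (2.63% higher, 4.74% lower) and 6.32% in OSVZ against CP (2.11% higher, 4.21% lower). Relative to CP, the family had a median log2 difference of -0.18 in VZ and -0.09 in OSVZ, beside -0.22 and -0.20 over all arms. With library totals in place of TMM the split of all calls was 37 higher and 32 lower in VZ, against 30 and 54 with TMM, and 38 higher and 34 lower in OSVZ, against 24 and 48. Both comparisons use the same 4 CP libraries. No 3p arm was called in either, with log2 differences between -0.89 and 1.15 in VZ and between -0.67 and 1.10 in OSVZ.

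**Figure D2:**
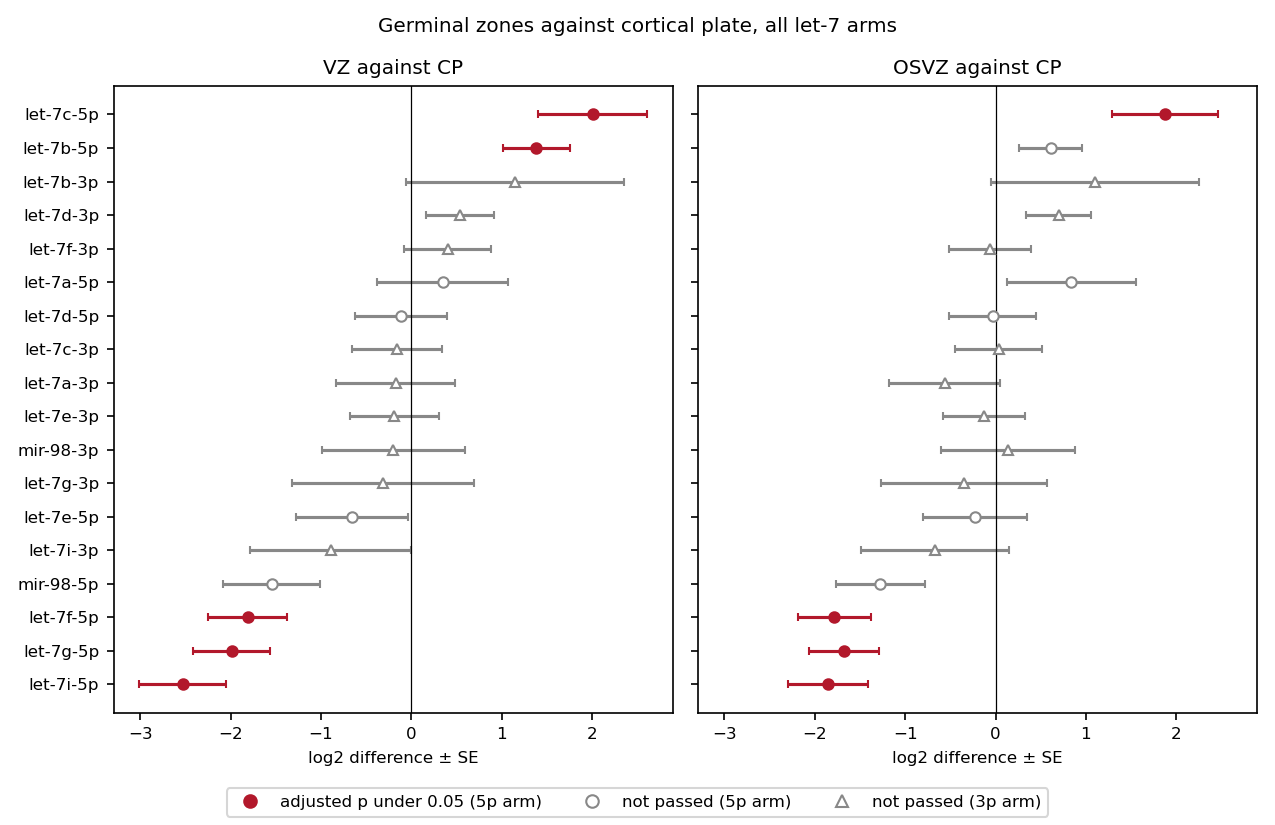
Log2 difference with its standard error for all 18 arms, VZ against CP on the left and OSVZ against CP on the right, ordered by the VZ value. Filled points have an adjusted p under 0.05, triangles are 3p arms, and the 5 called arms are all 5p, from -2.53 (let-7i-5p in VZ) to 2.01 (let-7c-5p in VZ).

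let-7i-5p, which comes from a gene that stands alone in the human genome, had the largest difference of the family between VZ and CP. It was at 191 and 37.5 CPM in the VZ_17 libraries (replicates 1 and 2) and at 233 and 399 CPM in the VZ_18 libraries. In OSVZ it ran from 73.0 to 701 CPM with a median of 263 CPM, and in CP it was at 1961 and 1162 CPM in area 17 and at 736 and 829.3 CPM in area 18. All 4 VZ and all 6 OSVZ libraries were below the lowest CP library. Between VZ and CP the log2 difference was -2.53 ± 0.48 (SE, adjusted p = 0.000338, edgeR), and between OSVZ and CP it was -1.85 ± 0.44 (adjusted p = 0.00447, edgeR). The VZ call held in each of 21 other settings, with adjusted p up to 0.0132, although its size ranged from -3.63 without VZ_17 replicate 1 to -1.80 without VZ_18 replicate 1 and VZ_17 replicate 2 together. The OSVZ call ended without the block (adjusted p = 0.0573), without OSVZ_18 replicate 1 (0.121) and without CP_17 replicate 1 (0.0592). From low to high the region means were ordered VZ_17, OSVZ_17ext, OSVZ_17int, VZ_18, OSVZ_18, CP_18 and CP_17. Neighbours in that order overlapped in their 2 libraries except at OSVZ_17ext against OSVZ_17int and at each step into and within CP.

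For let-7g-5p, also the product of a single gene, the VZ libraries were at 4131 and 1124 CPM in area 17 and at 1196 and 3490 CPM in area 18. OSVZ ran from 2449 to 4805 CPM with a median of 2631 CPM. CP libraries were at 12274 and 6995 CPM in area 17 and at 7650 and 12314 CPM in area 18, above every germinal library. The log2 difference was -1.99 ± 0.43 in VZ against CP (adjusted p = 0.00162, edgeR) and -1.67 ± 0.39 in OSVZ against CP (adjusted p = 0.00378, edgeR). The OSVZ call ended without the block (adjusted p = 0.0564) and without OSVZ_18 replicate 2 (0.123), CP_17 replicate 1 (0.0830) or CP_18 replicate 2 (0.0616). Without VZ_18 replicate 1 and VZ_17 replicate 2 together, the VZ difference was -1.13 with an adjusted p of 0.0644. It was -2.71 without VZ_18 replicate 2 and -2.61 without VZ_17 replicate 1, both called. The 5 germinal regions, at means of 2343 to 3627 CPM, overlapped each with its neighbour in the order, and the step to CP was the only one that did not overlap.

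let-7f-5p, made from a pair of genes, had the highest mean in CP, where it was above let-7g-5p in both set 1 libraries and below it in both set 2 libraries. VZ libraries were at 6256 and 628 CPM in area 17 and at 2332.5 and 3680 CPM in area 18, and OSVZ ran from 1531 to 6790 CPM with a median of 2706 CPM. CP libraries were at 18768 and 5211 CPM in area 17 and at 12900 and 8726 CPM in area 18. Here the zones overlapped, since VZ_17 replicate 1 and 2 of the OSVZ libraries exceeded CP_17 replicate 2. Within each set the direction was the same, with a log2 difference between VZ and CP of -2.03 in set 1 and -2.15 in set 2. The OSVZ libraries were also below those of CP in both sets. The fitted differences were -1.81 ± 0.44 in VZ (adjusted p = 0.00542, edgeR) and -1.79 ± 0.40 in OSVZ (adjusted p = 0.00293, edgeR).

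This arm leaned on the set term and on single libraries more than let-7i-5p did in VZ. Without the block the adjusted p of let-7f-5p was 0.190 in VZ and 0.213 in OSVZ. The VZ call also ended without VZ_18 replicate 1 (log2 difference -1.22, adjusted p = 0.0902), and without that library and VZ_17 replicate 2 together it was -0.89 with an adjusted p of 0.198. In the other direction it was -2.66 without VZ_18 replicate 2 and -2.56 without VZ_17 replicate 1. The OSVZ call ended without OSVZ_18 replicate 2 (adjusted p = 0.126) and without CP_17 replicate 1 (0.0517).

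miR-98-5p, a member under another name, had its levels on the same side without passing the test. It was at 245 and 25.7 CPM in VZ_17 and at 43.6 and 77.7 CPM in VZ_18, against 614 and 137 CPM in CP_17 and 172 and 198 CPM in CP_18. In OSVZ it ran from 49.4 to 132 CPM, with all 6 libraries below the lowest CP library. The log2 difference was -1.54 ± 0.54 in VZ against CP (adjusted p = 0.0810, edgeR) and -1.27 ± 0.49 in OSVZ against CP (adjusted p = 0.141, edgeR). It passed in VZ when VZ_17 replicate 1 was left out (-2.63, adjusted p = 0.000333), VZ_18 replicate 2 (0.0381) or CP_17 replicate 2 (0.0379), and in OSVZ without VZ_17 replicate 1 (0.0414), without VZ_17 replicate 2 (0.0255) or without VZ_18 replicate 1 and VZ_17 replicate 2 together (0.0425).

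let-7b-5p went the other way and was one of the abundant members of the germinal zones. VZ libraries were at 2981 and 5210 CPM in area 17 and at 2609 and 2067 CPM in area 18, and CP libraries at 1563 and 1803 CPM in area 17 and at 1040 and 600 CPM in area 18. Every VZ library lay above the highest CP library. OSVZ ran from 726 to 3830 CPM with a median of 1668 CPM and overlapped both other zones. The log2 difference was 1.39 ± 0.37 in VZ against CP (adjusted p = 0.0143, edgeR), and in OSVZ against CP it was 0.61 ± 0.35 without passing (adjusted p = 0.431, edgeR). The VZ call ended without the block (adjusted p = 0.0589) and without CP_17 replicate 1 (0.0922), CP_17 replicate 2 (0.0715) or CP_18 replicate 2 (0.156), while the difference stayed between 1.15 and 1.86 over 21 other settings. It held without VZ_18 replicate 1 and VZ_17 replicate 2 together (1.31, adjusted p = 0.0140).

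let-7c-5p differed in the same direction at a far lower level. VZ libraries were at 84.3 and 84.1 CPM in area 17 and at 54.5 and 60.2 CPM in area 18, and OSVZ ran from 22.7 to 113 CPM with a median of 62.1 CPM. CP libraries were at 17.3 and 6.91 CPM in area 17 and at 24.1 and 23.4 CPM in area 18. All 4 VZ libraries and 5 of 6 OSVZ libraries were above the highest CP library, and OSVZ_17int replicate 1 was the exception. In counts this was 392 to 621 in VZ, 112 to 697 in OSVZ and 58 to 184 in CP. The log2 difference was 2.01 ± 0.61 in VZ against CP (adjusted p = 0.0340, edgeR) and 1.87 ± 0.59 in OSVZ against CP (adjusted p = 0.0467, edgeR).

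Both calls of let-7c-5p were near the threshold. Without the block the adjusted p was 0.0647 in VZ and 0.0707 in OSVZ, and without a filter on low counts it was 0.0609 in OSVZ. In VZ the call ended when any 1 of 6 libraries was left out, VZ_17 replicate 1 (adjusted p = 0.0515), VZ_18 replicate 2 (0.0513), OSVZ_18 replicate 1 (0.0503), CP_17 replicate 2 (0.269), CP_18 replicate 1 (0.102) or CP_18 replicate 2 (0.152). In OSVZ it ended without any 1 of 7, OSVZ_17int replicate 2 (0.0934), OSVZ_17ext replicate 2 (0.102), OSVZ_18 replicate 1 (0.187), OSVZ_18 replicate 2 (0.0818), CP_17 replicate 2 (0.396), CP_18 replicate 1 (0.126) or CP_18 replicate 2 (0.202). The difference itself stayed between 1.65 and 2.61 in VZ and between 1.49 and 2.53 in OSVZ, with both upper values reached without CP_17 replicate 1.

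let-7d-5p, abundant in all zones, showed no call. VZ libraries averaged 2538 ± 1805 CPM (SD, n = 4), OSVZ libraries 2339 ± 1077 CPM (n = 6) and CP libraries 2810 ± 1643 CPM (n = 4), with log2 differences of -0.11 ± 0.51 and -0.03 ± 0.48 against CP. Their sign turned under other scalings. VZ_17 replicate 2 was far below the others at 231 CPM, and without VZ_17 replicate 1, which leaves that library alone for its region, the VZ difference was -1.87 with an adjusted p of 0.00233.

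let-7a-5p and let-7e-5p were rare in these tables, at 8.12 to 144 CPM and 20.5 to 161 CPM over the 14 libraries. let-7a is among the most abundant members in most small RNA data, and its counts here were between 51 and 889 per library. Neither passed, with log2 differences against CP of 0.35 ± 0.73 (VZ) and 0.84 ± 0.71 (OSVZ) for let-7a-5p and -0.65 ± 0.62 (VZ) and -0.22 ± 0.58 (OSVZ) for let-7e-5p. For both, OSVZ_17ext replicate 2 was the highest library.

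Because the scale between libraries moves every member alike, the make-up of the family was also read within each library. let-7f, g and i together held 24.3% to 59.5% of the TMM-scaled 5p sum in VZ, 38.8% to 76.3% in OSVZ and 76.7% to 89.2% in CP. let-7b and c together held 16.5% to 71.8% in VZ, 5.43% to 35.3% in OSVZ and 2.55% to 10.4% in CP. Every CP library therefore had more let-7f, g and i, and every VZ library more let-7b and c, than any library of the other zone. The log2 ratio of the summed f, g and i to the summed b and c was 0.64 ± 1.59 in VZ (SD, n = 4), 1.76 ± 1.29 in OSVZ (n = 6) and 4.18 ± 0.94 in CP (n = 4). OSVZ_17int replicate 1, at 3.81, was the only germinal library above the lowest CP library, at 2.88. Without VZ_17 replicate 2, at -1.56, the VZ mean was 1.37 ± 0.76 (SD, n = 3). Leaving out single VZ libraries, an alternative added after seeing the data, moved it between 0.24 and 1.37. These 5 arms were put together because of their calls, so the ratio is a description and was not tested.

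**Figure D3:**
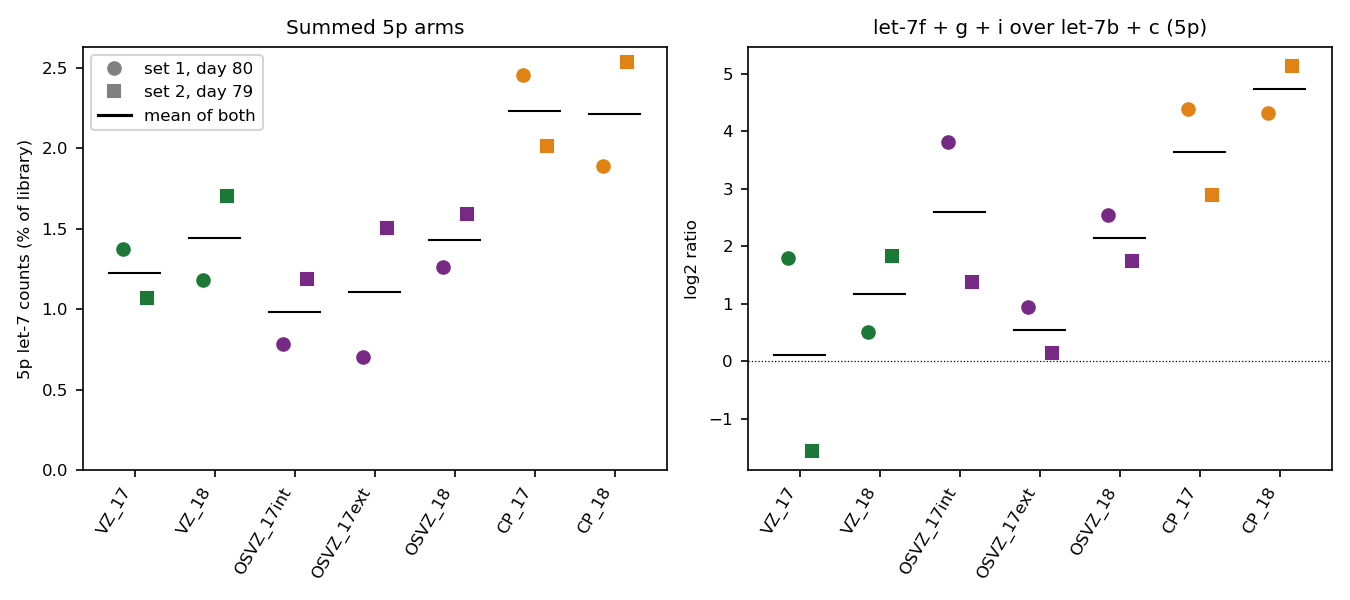
Left, share of all counts of a library held by 5p let-7 arms; right, log2 ratio of summed let-7f, g and i to summed let-7b and c (5p arms), for each library by region. CP libraries are highest on the left, from 1.89% to 2.54%, and range from 2.88 to 5.13 on the right, where VZ_17 replicate 2 is the only library below 0, at -1.56.

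By member, let-7b-5p held 33.0% ± 25.8 of the 5p let-7 counts in VZ (SD, n = 4), 19.3% ± 11.5 in OSVZ (n = 6) and 5.21% ± 3.51 in CP (n = 4). let-7g-5p held 19.6% ± 6.49 in VZ, 27.0% ± 4.93 in OSVZ and 37.9% ± 9.41 in CP. Its OSVZ mean was between the others, and its OSVZ libraries, at 22.0% to 34.8%, overlapped both other zones. let-7f-5p held 24.3% ± 11.0 in VZ, 28.1% ± 12.7 in OSVZ and 41.0% ± 10.03 in CP, and its 3 zones overlapped. The large SD of let-7b-5p in VZ came with VZ_17 replicate 2, where it made up 70.6% of the 5p counts, against 16.0% to 29.1% in the other VZ libraries, whose mean was 20.5%. let-7d-5p held 3.14% in that library, against 22.5% to 27.2% in the others. Over the zones let-7d-5p held 19.4% ± 11.0 in VZ, 20.5% ± 9.84 in OSVZ and 10.2% ± 2.61 in CP, although its level showed no call.

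**Figure D4:**
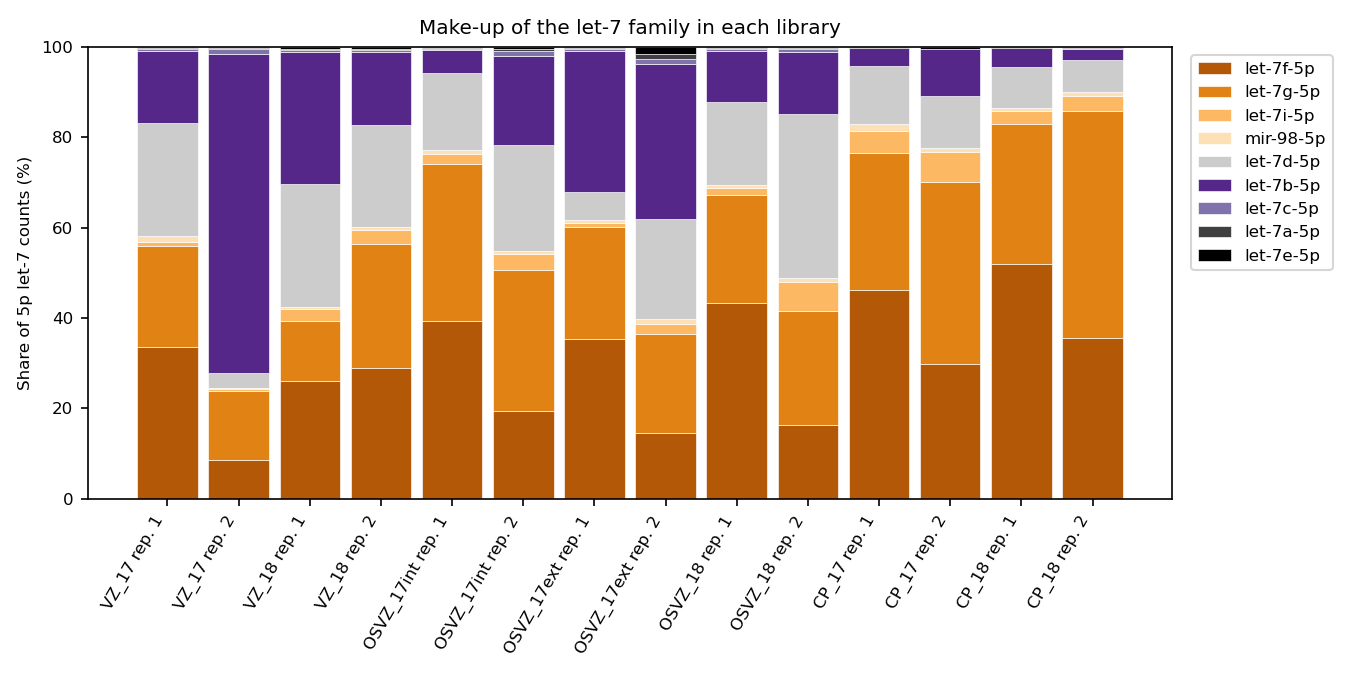
Share of each member in the 5p let-7 counts of each library, in percent. Orange shades (let-7f, g, i and miR-98) fill most of the 4 CP bars, and dark violet (let-7b) reaches 70.6% in VZ_17 replicate 2, against at most 10.4% in CP.

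The 3p strands, usually the discarded side of the precursor, showed that the members differ in which arm was counted. For let-7b, f and g the 3p arm was a small part of both arms together, with medians over 14 libraries of 0.284%, 1.66% and 0.191%. It was a median of 6.66% for let-7i, 18.0% for let-7d and 20.5% for miR-98. In VZ_17 replicate 2, where let-7d-5p was low, the 3p share of let-7d was 77.8%, against 10.1% to 24.1% in the other VZ libraries. let-7d-3p was at 813 CPM in that library. For let-7a, c and e the 3p arm was the larger in 7, 10 and 13 of 14 libraries, with medians of 52.6%, 68.7% and 68.0%, and these are the 3 members with the lowest 5p levels. let-7d-3p was the most abundant 3p arm, with a mean of 658 ± 244 CPM over VZ libraries (SD, n = 4), 721 ± 226 CPM over OSVZ libraries (n = 6) and 427 ± 165 CPM over CP libraries (n = 4). In the same order of zones, let-7e-3p averaged 76.6 ± 10.9, 78.2 ± 24.5 and 87.4 ± 17.9 CPM. let-7a-3p averaged 35.0 ± 17.1, 30.0 ± 15.4 and 43.8 ± 23.9 CPM, and miR-98-3p 19.5 ± 11.4, 24.8 ± 13.1 and 24.3 ± 14.1 CPM.

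Arms of 1 precursor did not always differ together between zones. let-7c-3p averaged 90.6 ± 19.7 CPM in VZ (SD, n = 4) and 99.6 ± 43.3 CPM in CP (n = 4) and was not called, whereas let-7c-5p was. The 3p share of let-7c was 45.1% to 65.9% in VZ, 29.5% to 82.6% in OSVZ and 72.7% to 92.6% in CP, so that the VZ libraries were all below the CP libraries. let-7i-3p averaged 25.8 ± 23.8 CPM in VZ and 45.2 ± 19.0 CPM in CP, with 0 counts in VZ_17 replicate 2. Whether the arms of a precursor differ in their response was not tested.

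**Figure D5:**
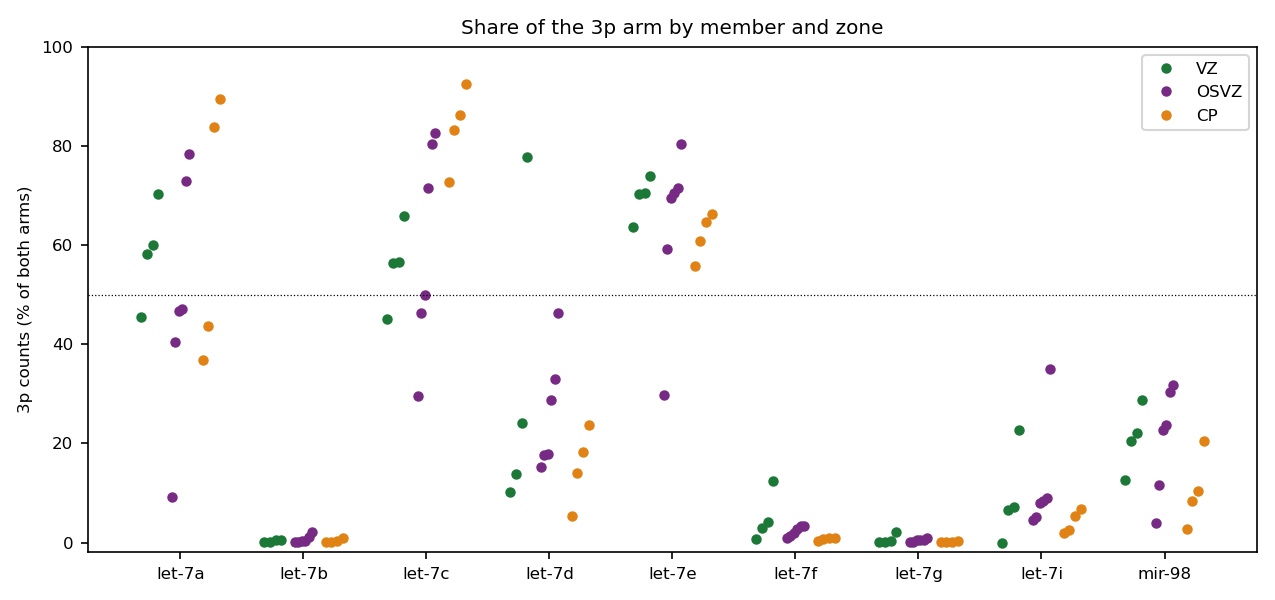
Share of the 3p arm in the counts of both arms (percent) for each member, with 1 point per library in VZ, OSVZ and CP. let-7b, f and g lie near 0, and the let-7c points of VZ lie below those of CP. let-7a, c and e spread widely on both sides of 50, from 9.10 to 89.4, 29.5 to 92.6 and 29.7 to 80.4.

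Between the germinal layers the family showed no call. OSVZ against VZ had 0 let-7 arms called by edgeR and 0 by DESeq2, with 1 arm at an unadjusted p under 0.05 in each, and 0.0878% of all arms were called. The let-7 arm with an unadjusted p under 0.05 by edgeR was let-7b-5p, at -0.77 ± 0.34 on the log2 scale (adjusted p = 0.477). Leaving out VZ_17 replicate 1 let VZ_17 rest on replicate 2 alone. The log2 difference was then 1.80 for let-7d-5p, 1.74 for let-7i-5p and 5.42 for let-7i-3p. let-7i-3p had 0 counts in VZ_17 replicate 2, so the size of its difference is set by the floor. Calls over all arms also rose here with some single libraries left out.

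Within the area 17 OSVZ, no let-7 arm differed between the inner and outer sublayers by edgeR (0 called, 1 at an unadjusted p under 0.05) or DESeq2 (0 called, 2 unadjusted), and edgeR called 0% of all arms, with 46 of 1139 at an unadjusted p under 0.05. let-7b-5p had the smallest p, at 726 and 1547 CPM in OSVZ_17int against 3236 and 3830 CPM in OSVZ_17ext. Both inner libraries were below both outer ones, with a log2 difference of -1.66 ± 0.53 (adjusted p = 0.938, edgeR). Without VZ_18 replicate 1 and VZ_17 replicate 2, which belong to neither sublayer but enter the shared estimate of spread, it was -1.79 with an adjusted p of 0.0387.

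Area 17 will come to hold more neurons than area 18, and the regions allow the same comparison within zones. In the germinal zones, area 17 against area 18 had 0 let-7 arms called by edgeR (2 at an unadjusted p under 0.05) and 0% of all arms (103 unadjusted). let-7i-5p was at -1.22 ± 0.44 (adjusted p = 0.337) and let-7f-3p at -1.25 ± 0.45 (adjusted p = 0.345), and DESeq2 called let-7f-3p alone (-1.20, adjusted p = 0.0421). let-7f-3p was at 328 CPM in VZ_18 replicate 1, the library with the most erythroid counts, and at 27.5 to 108 CPM in the other VZ libraries. The part of red cells in that value was not tested.

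In CP, area 17 against area 18 had 0 let-7 arms called by edgeR, 0 of them at an unadjusted p under 0.05, and 0 by DESeq2, with 1 unadjusted. edgeR called 0% of all arms, with 36 at an unadjusted p under 0.05. let-7b-5p was at 1563 and 1803 CPM in CP_17 against 1040 and 600 CPM in CP_18, without overlap and without a call (1.015 ± 0.52, adjusted p = 0.994). let-7c-5p was at 17.3 and 6.91 CPM in CP_17 against 24.1 and 23.4 CPM in CP_18, also without overlap (-0.93 ± 0.84, adjusted p = 0.994).

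Whether the VZ against CP difference itself differs between areas was tested as an interaction, in which 0 let-7 arms were called by edgeR and 0 by DESeq2, with 1 and 3 at an unadjusted p under 0.05 and 0.0878% of all arms called by edgeR. The edgeR arm was let-7i-5p, whose VZ against CP difference was lower in area 17 than in area 18 by a log2 value of -2.40 ± 0.93 (adjusted p = 0.640). Without VZ_17 replicate 1, which leaves that region with 1 library, the interaction was -4.67 for let-7d-5p, -4.63 for let-7i-5p and -10.9 for let-7i-3p. The area comparison of germinal zones was then -2.33, -2.25 and -5.29 for these arms. Both let-7i-3p values rest on 0 counts in VZ_17 replicate 2, so their size is set by the floor. Calls over all arms also rose in both comparisons with some single libraries left out.

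The miRNAs that share clusters with let-7 genes were read beside them, as both arms of miR-99a, miR-99b, miR-100, miR-125a and miR-125b. Of these 10 arms 1 was lower in VZ than in CP and 0 were higher, and none passed in OSVZ against CP or in OSVZ against VZ by edgeR. The called arm, miR-125a-5p, had 36590 ± 9286 CPM in VZ libraries (SD, n = 4) and 97236 ± 48867 CPM in those of CP (n = 4), a log2 difference of -1.30 ± 0.40 (adjusted p = 0.0347). Its human cluster neighbour let-7e-5p was at -0.65 ± 0.62. miR-99b-5p, the other human neighbour of let-7e, was at -0.90 ± 0.36 (adjusted p = 0.142, edgeR). miR-99a-5p, a human neighbour of let-7c, had 63064 ± 19164 CPM in VZ libraries and 52952 ± 12648 CPM in those of CP (0.27 ± 0.39, adjusted p = 0.728), where let-7c-5p had a log2 difference of 2.01. miR-125b-5p, also a human neighbour of let-7c, had the opposite sign in VZ against CP, at -0.80 ± 0.45 (adjusted p = 0.298, edgeR).

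Among 362 non-member arms that averaged 10 CPM or more, the levels most like those of let-7i-5p over the 14 libraries were of miR-139-3p (Pearson r = 0.837 of log2 CPM), miR-338-3p (r = 0.810) and miR-132-5p (r = 0.800), from a precursor induced by neuronal activity. For let-7b-5p they were miR-744-5p (r = 0.814), miR-3676-5p (r = 0.785) and miR-1180-3p (r = 0.733). Within the family, let-7f-5p and let-7g-5p had r = 0.876, and let-7g-5p and let-7b-5p had r = -0.71. These values describe libraries that share sets and zones and carry no test.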

How the data were processed

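The authors deposited tables of raw counts, 1 row per miRNA name, in which each library has a 5p and a 3p column. Per the labels' protocols, regions were cut with a UV laser, RNA was isolated with a Qiagen kit and size-selected libraries were made with a SOLiD kit. No aligner, genome build or miRNA annotation is named in the labels or file headers. Columns were given to replicate 1 or 2 by each table's spelling of its regions. Left aside were 12 columns of 6 libraries whose names fit no label. The third set, 6 of 20 labelled samples, is not analysed here.

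The 828 names shared by both tables gave 1656 arms. filterByExpr kept 1139. edgeR 4.0.16 (R 4.3.3) scaled them by TMM and ran glmQLFTest on region means plus a set term. The fit had 6 residual degrees of freedom, to which 28.1 borrowed from the spread over all arms were added. OSVZ averages area 18 with the mean of both area 17 sublayers. Calls needed a Benjamini-Hochberg adjusted p under 0.05 over all 1139 arms. The SE of a log2 difference was worked back from the test, as its size over the square root of the F statistic. It is therefore no measure of spread apart from that test. The set term rests on the labels, which give each set its own embryonic day. Deviations from region means correlated between libraries of a set with a median r of 0.309, over 0.1 in 20 of 21 pairs. The median log2 difference of all arms under TMM, DESeq2 size factors and library totals was -0.22, 0.02 and 0.21 for VZ against CP and -0.20, -0.05 and 0.04 for OSVZ against CP. DESeq2 1.42.0, other scalings and filters, no block and libraries left out were alternatives. The test was also run on simulated data with independent libraries and no set effect, so that run cannot check the set term.

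Members, lists and tests were chosen with earlier results of these data known. All 5p arms are named, 3p arms where they pass or reach 10 CPM, and the 3 arms most like the member with the smallest p of VZ against CP in each direction. miRNAs of other names with the let-7 seed, which that rule also asks for, were not looked up here.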

Additional observations from a re-analysis of the deposited data

Results flagged for a closer look

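A library stood far from the others of its zone in 7 of 54 groups checked (18 arms in 3 zones), where chance flags about 1 in 20 groups, or 2.7. OSVZ_17ext replicate 2 was apart for let-7a-5p, at 144 CPM against 14.5 to 28.6 CPM in the other OSVZ libraries, and for let-7e-5p, at 161 CPM against 20.5 to 47.0 CPM. CP_17 replicate 1 was apart for let-7d-5p, at 5258 CPM against 1750 to 2215 CPM in the other CP libraries, and for miR-98-5p, at 614 CPM against 137 to 198 CPM. let-7i-5p was at 701 CPM in OSVZ_18 replicate 2, against 73.0 to 302 CPM in the other OSVZ libraries. let-7e-5p was at 34.8 CPM in CP_18 replicate 1, against 59.5 to 62.4 CPM, and let-7g-3p at 15.5 CPM in CP_17 replicate 2, against 7.13 to 8.41 CPM. What sets these libraries apart was not tested.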

How the results depend on the processing

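The 5 let-7 calls of VZ against CP became 2 with no replicate block and 3 without VZ_18 replicate 1 and VZ_17 replicate 2 together, and ran from 3 to 7 with single libraries left out. The 4 calls of OSVZ against CP became 0 with no replicate block and ran from 1 to 5 with single libraries left out. Other scalings, filters and DESeq2 gave 5 calls in VZ and 3 or 4 in OSVZ. The 0 calls elsewhere became 1 with DESeq2 for area 17 against 18 in germinal zones. Without the 2 VZ libraries let-7b-5p was at -1.79 in OSVZ_17int against OSVZ_17ext. Of single libraries left out, only VZ_17 replicate 1 brought let-7 calls in OSVZ against VZ, between areas in germinal zones and in the interaction. The sizes are given above. Calls over all arms also rose in these comparisons with some single libraries left out. Over all arms, the 84 calls of VZ against CP were 53 with no replicate block and 169 with DESeq2, and the 72 of OSVZ against CP were 120 with DESeq2 and 125 without the 2 VZ libraries. Single libraries left out gave 53 to 120 and 44 to 100. DESeq2 called 28 arms of all in OSVZ against VZ, 2 in OSVZ_17int against OSVZ_17ext, 26 and 3 between areas in germinal zones and in CP, and 8 in the interaction, where edgeR called 1, 0, 0, 0 and 1. With DESeq2 size factors the split of all calls was 34 higher and 42 lower in VZ, against 30 and 54 with TMM, and 35 and 44 in OSVZ, against 24 and 48. It was 44 and 42 in VZ and 26 and 34 in OSVZ with no filter. The cause of these shifts was not tested.

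No called arm changed sign. let-7d-5p, called in VZ without VZ_17 replicate 1 and in no other setting, turned to 0.15 in VZ and 0.14 in OSVZ with DESeq2 size factors and with DESeq2, to 0.28 and 0.25 with library totals, to 0.13 and 0.097 with no filter, to 0.039 and 0.096 with arms of at least 10 CPM, and to 0.69 and 0.028 without the 2 VZ libraries. With single libraries left out it ran from -1.87 to 0.53 in VZ and from -0.43 to 0.38 in OSVZ. let-7e-5p in OSVZ was 0.031 with library totals and -0.77 to 0.21 with single libraries left out, and let-7a-5p in VZ -0.41 to 0.91. Shares with both arms in the denominator moved by less than 1 SD. Leaving out 1 library cannot move a mean by 1 SD of the same libraries, so that check could not fail. The let-7b-5p share in VZ still fell without VZ_17 replicate 2, as given above. A library left out leaves its region with 1 library, taken to vary like the others. Depth limits let-7a, c and e, with down to 51 counts.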
